A study of Mus musculus with 24 samples.

Results

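The Cyp3a family was followed in mouse liver across 24 RNA-Seq libraries. Its 8 members, Cyp3a11, Cyp3a13, Cyp3a16, Cyp3a25, Cyp3a41a, Cyp3a41b, Cyp3a44, and Cyp3a59, are among 23972 genes with a count, of which 10 have a symbol starting with Cyp3a. The members were chosen by name, with their difference between genotypes already known from these libraries, to set paralogs that were nearly absent in lipodystrophic liver beside paralogs that were not. Differences between genotypes are therefore described here without a test, and tests are given only for the treatment and for genes outside the family. Female mice on a C57BL/6J background were used. Controls were Lmna fl/fl mice without Cre, and LmnaADKO mice were Lmna fl/fl mice with Adipoq-Cre, whose promoter is active in adipocytes and which deletes exons 10 and 11 of Lmna there. The liver cells of both genotypes thus carried the same floxed Lmna alleles without a hepatocyte Cre. All mice entered at 12 to 14 weeks of age, were housed at 22°C, ate a high-fat diet (60% HFD) for 4 weeks before treatment, and were euthanized 8 weeks after it. Treatment was vehicle or an AAV8 vector encoding mouse FGF21. The labels name the vector groups only as a rescue. There were 7 vehicle-treated controls, 3 FGF21-treated controls, 6 vehicle-treated LmnaADKO mice, and 8 FGF21-treated LmnaADKO mice.

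CYP3A enzymes are cytochrome P450 monooxygenases of the endoplasmic reticulum. They are made mainly in hepatocytes and enterocytes, take electrons from P450 oxidoreductase, and oxidize drugs, steroids, and bile acids. In mouse liver, Cyp3a11 is the major drug-inducible member and a classical target of the pregnane X receptor (PXR, Nr1i2). Cyp3a41 and Cyp3a44 are known as female-predominant genes of adult liver, and Cyp3a16 as a gene of fetal and young liver. Sex-biased P450 genes of mouse liver depend on the pattern of growth hormone secretion.

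Between 19863304 and 21510054 reads were counted on genes in each library, and values are given as counts or as CPM, that is, counts scaled to a common library size after TMM normalization. Libraries are numbered within each group. No label ties 2 libraries to 1 animal. Fgf21 was at 5.36 ± 2.41 CPM (SD, n = 8) in FGF21-treated and 7.99 ± 2.48 (n = 6) in vehicle-treated LmnaADKO liver, and at 4.78 ± 2.29 (n = 3) and 4.01 ± 3.18 (n = 7) in the control groups, so reads on this gene did not separate the treatment groups. In plasma, the paper reports an increase of FGF21 after transduction that was disproportionately large in LmnaADKO mice. Lmna itself was read at 18.6 ± 2.47 CPM (n = 7) in vehicle-treated control liver and 26.7 ± 2.57 (n = 6) in vehicle-treated LmnaADKO liver, which does not check the genotype because the deletion is in adipocytes. Control vehicle 3, control FGF21 3, and LmnaADKO FGF21 7 lay apart from the other libraries in an earlier principal component analysis, and control vehicle 4 stood apart in the genes described here. Bulk RNA cannot tell fewer cells of a type from less RNA per cell.

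Apart from Cyp3a13, the family lies in 1 cluster on chromosome 5 (GRCm38, annotation of GENCODE M21). In order along the chromosome, the members are Cyp3a16 (ENSMUSG00000038656, chr5:145436309-145469723), Cyp3a41b (chr5:145558664-145584730), Cyp3a41a (chr5:145694049-145720136), Cyp3a44 (chr5:145773983-145805874), Cyp3a11 (ENSMUSG00000056035, chr5:145854426-145879964), and Cyp3a25 (chr5:145977194-146009618), all on the minus strand, followed by Cyp3a59 (chr5:146079257-146113287) on the plus strand. Cyp3a13 lies on the same chromosome outside the cluster (chr5:137892932-137921619, minus strand). The 4 members that were nearly absent from LmnaADKO liver are neighbors among the members. They lie between 145436309 and 145805874, with the pseudogene Cyp3a63-ps and other annotated genes among them, and Cyp3a11 is the next member.

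By transcript sequence the family falls into a few close groups. Cyp3a41a and Cyp3a41b share 99.9% of aligned bases, and only 17.1% and 17.3% of the 150-base windows of their transcripts occur in no other gene. Their separate counts are therefore uncertain, and their sum is also given. Cyp3a41a is 95% identical to Cyp3a44, 92.2% to Cyp3a16, and 94.5% to Cyp3a11. Cyp3a25 and Cyp3a59 are 97.0% identical to each other and 72.7% and 72.6% identical to Cyp3a11. Cyp3a13 is between 69.8% and 72.2% identical to the other members. For Cyp3a11, Cyp3a16, Cyp3a44, and Cyp3a13, 100% of 150-base windows were unique, and for Cyp3a25 and Cyp3a59 99.3% were. Thus, in sequence, Cyp3a11 belongs with the near-absent paralogs.

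The promoters show the same grouping, and 4 of them are printed so that the near-absent neighbors can be compared with a retained member. RefSeq windows (GRCm38.p6) were found for 8 of 8 members, and the 250 bases before each start were searched on both strands for CAAAGTCCA, a site known to be bound by HNF4, for AGGTCA and AGTTCA, letters to which nuclear receptors such as PXR are known to bind, and for TTCNNNGAA, the core of a STAT5 site. The sequences are on the minus strand, read 5′ to 3′, for Cyp3a41a at chr5:145720137-145720386, Cyp3a16 at chr5:145469724-145469973, Cyp3a44 at chr5:145805875-145806124, and Cyp3a25 at chr5:146009619-146009868. Capitals mark matches to these motifs in either orientation, none of which overlap.
Cyp3a41a: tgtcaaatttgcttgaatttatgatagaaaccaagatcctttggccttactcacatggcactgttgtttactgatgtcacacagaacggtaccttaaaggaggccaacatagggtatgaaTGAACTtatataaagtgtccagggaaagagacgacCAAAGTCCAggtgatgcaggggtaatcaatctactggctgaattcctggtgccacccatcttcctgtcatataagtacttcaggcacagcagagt
Cyp3a16: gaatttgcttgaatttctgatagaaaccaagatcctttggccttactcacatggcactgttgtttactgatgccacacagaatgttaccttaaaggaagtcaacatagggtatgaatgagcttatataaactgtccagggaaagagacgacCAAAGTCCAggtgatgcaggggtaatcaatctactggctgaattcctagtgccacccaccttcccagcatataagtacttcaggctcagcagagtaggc
Cyp3a44: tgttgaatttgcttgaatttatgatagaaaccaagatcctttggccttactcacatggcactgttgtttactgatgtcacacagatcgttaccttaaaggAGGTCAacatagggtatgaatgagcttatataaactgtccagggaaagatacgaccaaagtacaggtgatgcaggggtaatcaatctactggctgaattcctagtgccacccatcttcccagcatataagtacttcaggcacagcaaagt
Cyp3a25: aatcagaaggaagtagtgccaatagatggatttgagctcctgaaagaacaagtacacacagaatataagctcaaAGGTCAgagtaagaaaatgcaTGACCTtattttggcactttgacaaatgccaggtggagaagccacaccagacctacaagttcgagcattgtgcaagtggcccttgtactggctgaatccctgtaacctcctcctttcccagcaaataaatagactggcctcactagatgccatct

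The window of Cyp3a41b differed from that of Cyp3a41a at 1 of 250 positions. Cyp3a16 and Cyp3a44 were 93.9% and 94.4% identical to Cyp3a41a over the aligned bases, and Cyp3a11 was 80.9% identical to it. CAAAGTCCA was present in Cyp3a16, Cyp3a41a, Cyp3a41b, and Cyp3a11, thus in 4 of 8 members and in 0.384% of 32851 promoters. It was present in near-absent and retained members. Its exact letters were not in the window of Cyp3a44, which was nearly absent. That window has caaagtaca in the corresponding place, with 1 base changed. AGGTCA or its reverse was in Cyp3a44, Cyp3a11, Cyp3a25, and Cyp3a59, also 4 of 8, and in 14% of all promoters, and Cyp3a25 and Cyp3a59 carried it in both orientations. AGTTCA or its reverse was in 3 of 8 members and 11.8% of promoters. TTCNNNGAA was in 0 of 8 of these windows and in 7.02% of all promoters, which says only that these letters are not in this stretch. None of these letters separated the near-absent from the retained members.

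Cyp3a41a, Cyp3a41b, Cyp3a16, and Cyp3a44 were nearly absent from the liver of vehicle-treated LmnaADKO mice and present in most vehicle-treated controls. Cyp3a41a, which codes for a steroid-hydroxylating P450, was the most abundant of the 4. It was at 0.737 CPM in the lowest control, 116 in the median control, and 1600 in the highest. In LmnaADKO liver the lowest, median, and highest libraries had 0, 0.118, and 4.14 CPM, the last being 97 counts in library 6. The control mean of 381 ± 571 CPM (SD, n = 7) was 486-fold the LmnaADKO mean of 0.784 ± 1.65 (n = 6), and the fitted log2 fold change was -8.88 ± 1.76 (SE). It was -11.69 without LmnaADKO vehicle 6 and between -11.69 and -7.78 over all libraries left out in turn. For the sum of Cyp3a41a and Cyp3a41b, which does not depend on how shared reads were divided, the control mean of 415 ± 634 CPM was 509-fold the LmnaADKO mean of 0.814 ± 1.63. Both ratios moved with single libraries. Without control vehicle 5, they were 226 for Cyp3a41a and 230 for the sum, and without LmnaADKO vehicle 6, they were 3410 and 2800.

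Cyp3a16 had 0 counts in 5 of 6 vehicle-treated LmnaADKO libraries and 3 counts in the remaining one, whereas controls had 2 counts in the lowest, 306 in the median, and 2106 in the highest library. With a floor of 3 counts per library, which was 0.135 CPM on average in this group, its control mean of 29.4 ± 38.1 CPM was at least 218-fold higher, and at least 126-fold higher without control vehicle 5. By the control median, it was at least 110-fold higher. Cyp3a41b had at most 2 counts in LmnaADKO liver, and 0, 145, and 3610 counts in the lowest, median, and highest control. Its control mean of 33.4 ± 64.1 CPM was at least 247-fold higher, and its control median at least 52.2-fold higher, because control vehicle 5 alone held 177 CPM. Without that library, the mean was at least 69.3-fold higher. Cyp3a44 had at most 3 counts in LmnaADKO liver and between 31 and 490 in controls. Its control mean of 7.69 ± 6.76 CPM was at least 56.9-fold higher, and it was the member whose genotypes did not overlap with vehicle.

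The overlap in the other 3 genes came from control vehicle 4. This library had 2 counts of Cyp3a16, 16 of Cyp3a41a, 0 of Cyp3a41b, and 31 of Cyp3a44, the lowest among the 10 control libraries for each of the 4 genes. With all libraries, 1 of 8 members had every LmnaADKO library below every control, against 3.73% of all genes, and 0 of 8 had every LmnaADKO library above, against 4.22%. Without control vehicle 4, 4 of 8 lay entirely below, against 4.32%, and 0 of 8 entirely above, against 5.1%. These counts follow from how the members were chosen. Control vehicle 4 was also the lowest of the 7 vehicle-treated controls for 10 of 25 listed female-biased genes, among them Sult2a1, a sulfotransferase of steroids and bile acids, at 1.38 CPM against 173 to 488 in the others. Over all genes that varied in this group, it was the lowest for 9.89% and the highest for 12.8%. It was the highest for 3 of the 25 female-biased genes, Prom1, Nipal1, and Abcd2. Cux2, a female-biased transcription factor, was at 37.7 CPM there, within the 32.4 to 76.6 of the others. Cyp3a11 was at 1624 CPM in this library, the highest of the 7.

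The 4 retained members, that is, those that were not near-absent, differed less than 2-fold between genotypes with vehicle. Cyp3a25 and Cyp3a13 lay within 1.5-fold, the limit set for a kept member. Cyp3a11 and Cyp3a59 lay beyond it, 1.59-fold and 1.71-fold higher in LmnaADKO liver. Cyp3a11 ranged from 577 through a median of 821 to 1620 CPM in vehicle-treated controls and from 1250 through 1600 to 1990 in LmnaADKO liver. Its means were 991 ± 404 (n = 7) and 1580 ± 290 (n = 6), a log2 fold change of 0.67 ± 0.198 (SE). The 2 control libraries with the most Cyp3a11, numbers 4 and 5, reached into the LmnaADKO range. Cyp3a59 was at 22.8 ± 6.52 and 39.0 ± 8.11 CPM (log2 fold change 0.77 ± 0.19), and LmnaADKO vehicle 3, at 26.2, fell within the control range of 12.4 to 30.4. Cyp3a25, an abundant P450 of adult liver, was at 291 ± 57.7 and 392 ± 68.7 CPM (0.43 ± 0.137). Cyp3a13, which is also made in the intestine, was at 157 ± 44.9 and 124 ± 29.1 CPM (-0.34 ± 0.191). The groups overlapped for all 4 genes. Members were counted as near-absent when LmnaADKO liver lay more than 2-fold below controls. The closest on either side of this limit were Cyp3a44, at least 56.9-fold lower, and Cyp3a13, 1.27-fold lower by the means, so that no member lay near it.

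**Figure D1:**
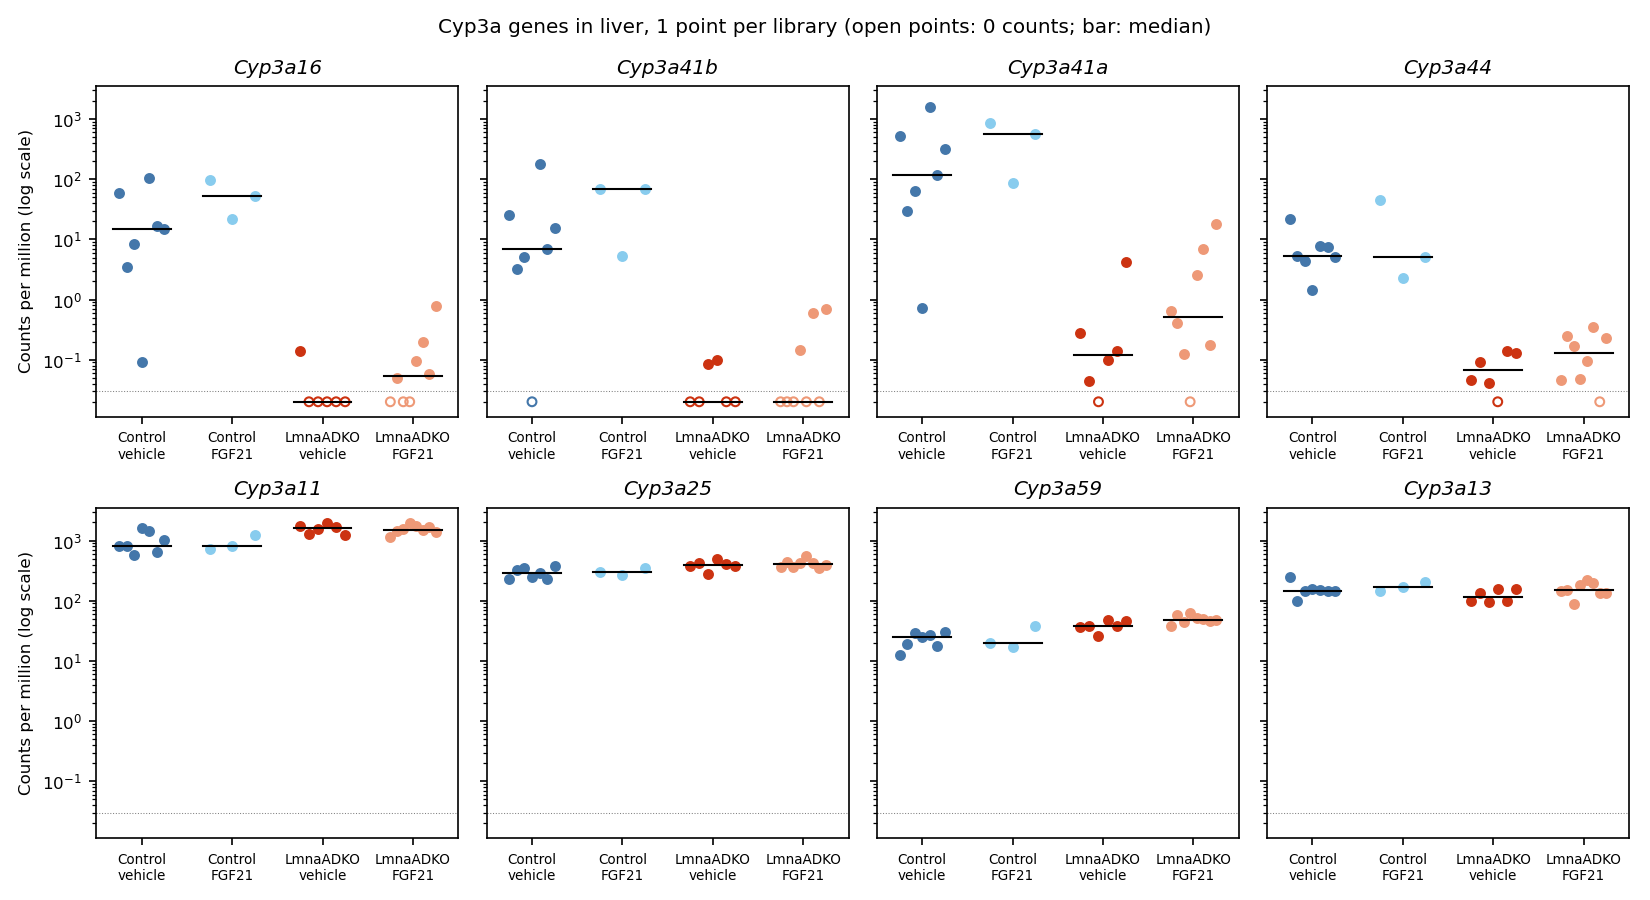
CPM of the 8 Cyp3a members on a log axis, with 1 point per library (7 control vehicle, 3 control FGF21, 6 LmnaADKO vehicle, and 8 LmnaADKO FGF21), a bar at each median, and open points under the dotted line for libraries with 0 counts. In the upper row most LmnaADKO points lie far below the controls, except for control vehicle 4. In the lower row the groups of each gene differ far less.

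Genotypes were also set side by side among FGF21-treated mice, which are other animals. Cyp3a41a was at 869, 86.7, and 566 CPM in control FGF21 libraries 1, 2, and 3, and ran from 0 through a median of 0.523 to 17.8 CPM in the 8 LmnaADKO libraries. The means were 507 ± 394 and 3.57 ± 6.22 CPM, a ratio of 142, and the medians had a ratio of 1080. The fitted log2 fold change was -7.14 ± 1.46 (SE) and ran from -8.36 to -6.5 with each library left out in turn. The ratio of means was 330 without LmnaADKO FGF21 8 and 91.4 without control FGF21 1. The sum of Cyp3a41a and Cyp3a41b was 148-fold higher in controls by the means, 338-fold without LmnaADKO FGF21 8, and 96.8-fold without control FGF21 1, and its lowest control was 4.96-fold above its highest LmnaADKO library. The 3 LmnaADKO libraries with the most Cyp3a41a were numbers 8, 6, and 5, with 385, 140, and 53 counts.

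Cyp3a16 had 2017, 441, and 888 counts in the 3 FGF21-treated controls and 0 to 17 in LmnaADKO liver, and Cyp3a41b had 1435, 106, and 1166 against 0 to 15. Cyp3a44 had 959, 45, and 86 counts against 0 to 7, a log2 fold change of -6.82 ± 0.817, which was -4.53 without control FGF21 1. Every one of these 4 genes separated the groups without overlap. Among the retained members, Cyp3a59 was at 24.9 ± 10.9 and 49.8 ± 7.79 CPM (log2 fold change 1.01 ± 0.245), and its lowest LmnaADKO library, at 38.4 CPM, lay just above its highest control, at 37.3. Cyp3a11 was at 923 ± 275 and 1550 ± 237 CPM (0.75 ± 0.252), Cyp3a25 at 304 ± 42.5 and 413 ± 65.6 (0.44 ± 0.171), and Cyp3a13 at 175 ± 30.2 and 158 ± 42.6 (-0.15 ± 0.229). In all, 4 of 8 members lay entirely below and 1 of 8 entirely above the controls, against 2.37% and 2.98% of all genes, and the choice of members again sets these counts.

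On a scale per length, with CPM divided by the length in kb of the longest protein-coding transcript (RPKM), Cyp3a11 was the leading member in most libraries. In vehicle-treated control liver, the order of levels ran from Cyp3a11 at a median of 350 RPKM through Cyp3a25 at 142, Cyp3a41a at 56.2, Cyp3a13 at 49.8, Cyp3a59 at 12.3, Cyp3a16 at 8.62, and Cyp3a41b at 3.42 to Cyp3a44 at 2.75. Cyp3a11, from 246 to 693 RPKM, lay above Cyp3a25, and Cyp3a13 above Cyp3a59, in every library of this group. Cyp3a41a ran from 0.358 to 779 RPKM, so that its place was not fixed and its range overlapped that of every other member. Below Cyp3a59, neighbors in the order overlapped. In vehicle-treated LmnaADKO liver, the order was Cyp3a11 at 683, Cyp3a25 at 196, Cyp3a13 at 39.5, and Cyp3a59 at 19.1 RPKM, with no overlap between neighbors, and the other 4 members had medians below 0.1.

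The near-absent members made up a median of 14% of the family's summed RPKM in vehicle-treated controls (0.129% in control vehicle 4 to 52.8% in control vehicle 5) and of 30.1% in FGF21-treated controls (9.7% to 50.7%). In LmnaADKO liver their share was at most 0.26% with vehicle and at most 1.09% with FGF21. The family's sum ran from 520 to 1760 RPKM in vehicle-treated controls with a median of 859, and from 800 to 1180 with a median of 905 in vehicle-treated LmnaADKO liver. The groups overlapped in this sum. In control vehicle 5 and control FGF21 1, Cyp3a41a passed Cyp3a11 and held 44.3% and 40.1% of the sum. Cyp3a11 alone held 66.4% to 77.9% of the sum in vehicle-treated LmnaADKO libraries.

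**Figure D2:**
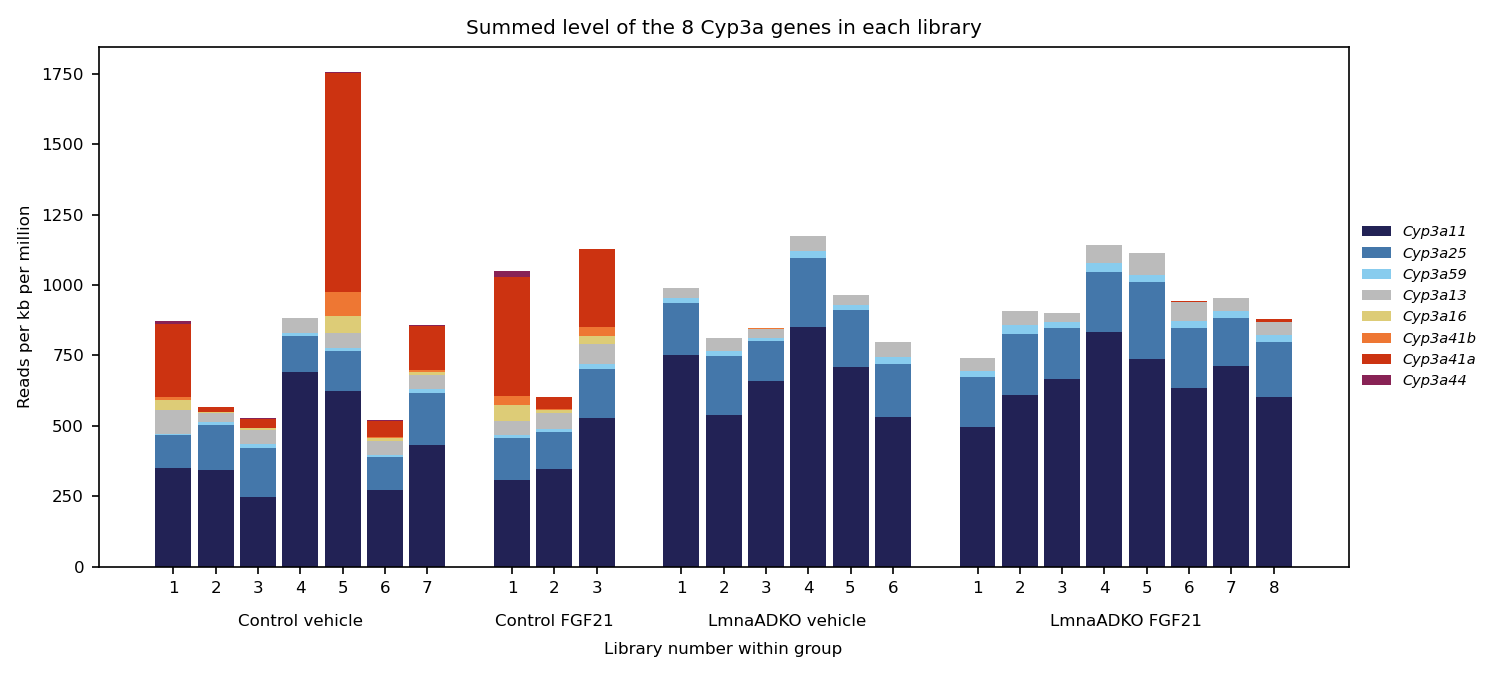
Summed level of the 8 Cyp3a members in RPKM, with 1 stacked bar per library and 1 color per gene. Cyp3a41a takes up to 44.3% of a control bar, and the 4 near-absent members together take at most 1.09% of any LmnaADKO bar.

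Whether FGF21 altered the family was tested within each genotype. No member passed the test in either. In LmnaADKO liver, 0 of 8 members were called by edgeR's quasi-likelihood test at an adjusted p (Benjamini-Hochberg over all genes) under 0.05 with a fold change above 1.5, 0 at an unadjusted p under 0.05, and 0 by DESeq2, against a background of 0% of all genes called by edgeR, 6.71% at an unadjusted p under 0.05, and 15 genes called by DESeq2. The smallest adjusted p of a member was 0.704. Cyp3a11 had a log2 fold change of -0.03 (95% interval -0.4 to 0.35) and Cyp3a25 of 0.08 (-0.19 to 0.34), intervals that lie within 1.5-fold in both directions. Cyp3a13 and Cyp3a59 each had 0.35, with intervals of -0.01 to 0.72 and -0.01 to 0.71. For the near-absent members the intervals were wide. Cyp3a41a had a log2 fold change of 2.15 (-0.82 to 5.13, adjusted p = 0.774 by edgeR), which was 0.93 without LmnaADKO FGF21 8 and 4.97 without LmnaADKO vehicle 6. Cyp3a44 had 0.95 (-1.91 to 3.8). Cyp3a16 and Cyp3a41b, whose vehicle-treated LmnaADKO libraries were all at or under 3 counts, had adjusted p-values of 0.863 and 0.892 by edgeR. The highest FGF21-treated LmnaADKO library, with 17.8 CPM of Cyp3a41a, stayed below all 3 FGF21-treated controls.

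In control liver, 0 of 8 members were called by edgeR with FGF21, 0 at an unadjusted p under 0.05, and 0 by DESeq2, against 0.0542% of all genes called by edgeR, 6.16% at an unadjusted p under 0.05, and 38 genes called by DESeq2. Cyp3a44 had the largest log2 fold change, 1.20 (-0.07 to 2.47, adjusted p = 0.771 by edgeR). It rested on control FGF21 1, which had 45.6 CPM where the other 2 had 2.25 and 5.01, and was -1.09 without that library. Cyp3a11 had -0.10 (-0.59 to 0.38), Cyp3a25 0.06 (-0.27 to 0.39), and Cyp3a41a 0.41 (-2.34 to 3.16), which was -0.22 without control FGF21 1 and 1.51 without control vehicle 5. The interaction of genotype and treatment, which tests whether the difference with FGF21 was unlike in the 2 genotypes, called 0 of 8 members by edgeR, 0 at an unadjusted p under 0.05, and 0 by DESeq2, against 0.00417% of all genes called by edgeR, 4.86% at an unadjusted p under 0.05, and 13 genes called by DESeq2. It was 0.08 for Cyp3a11 (-0.54 to 0.69) and 1.74 for Cyp3a41a (-2.42 to 5.91), the latter being 0.52 without LmnaADKO FGF21 8 and 4.55 without LmnaADKO vehicle 6.

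**Figure D3:**
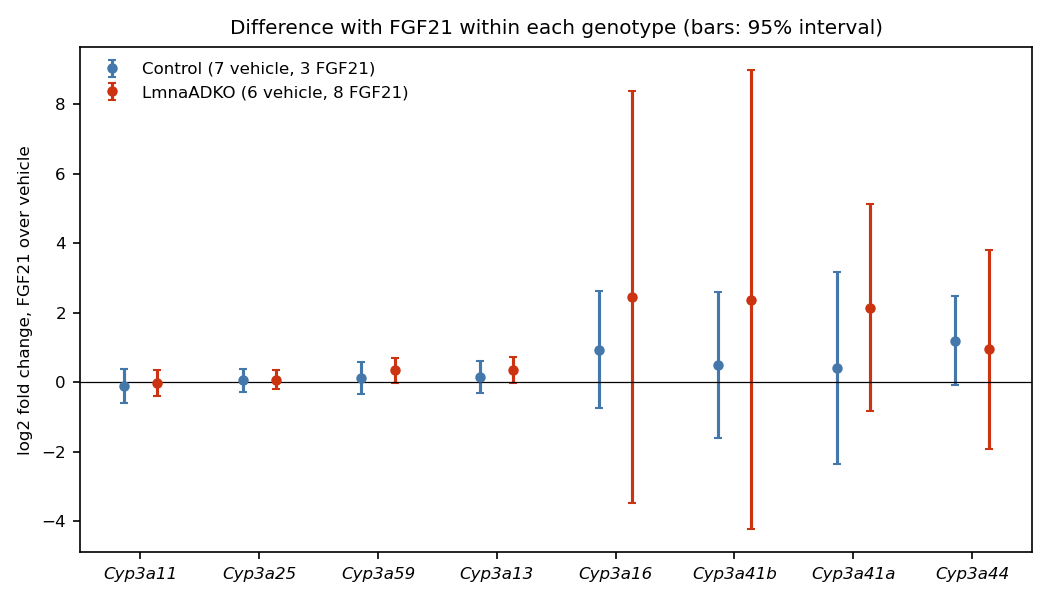
Log2 fold change of FGF21 over vehicle for the 8 members in controls (7 and 3 libraries) and LmnaADKO mice (6 and 8 libraries), with 95% intervals. All intervals include 0, and those of the 4 near-absent members are several times wider than those of the retained members.

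Within groups, the near-absent members varied together. After group means of log2 CPM were subtracted, Pearson's r over 24 libraries was 0.913 between Cyp3a16 and Cyp3a41b, 0.856 between Cyp3a16 and Cyp3a41a, 0.796 between Cyp3a41a and Cyp3a41b, and from 0.6 to 0.642 between Cyp3a44 and each of these. Cyp3a41a and Cyp3a41b share reads, and control vehicle 4 is low in all 4 genes. In LmnaADKO libraries, Cyp3a16, Cyp3a41b, and Cyp3a44 had at most 17, 15, and 7 counts, so those libraries say little about how these genes vary together. In the 9 other controls, counts of Cyp3a41b were 4.79% to 12% of those of Cyp3a41a. The retained Cyp3a25 and Cyp3a59, also close in sequence, had an r of 0.722, and Cyp3a11 had an r of 0.403 with Cyp3a59 and from -0.382 to -0.0474 with the near-absent members. Among 12486 expressed genes outside the family, Fgl1, a secreted protein of hepatocytes, was the most like Cyp3a13 (r = 0.836), and Tctex1d2 came next (0.804). Tmem59 and Kmo were closest to Cyp3a25 (0.815 and 0.779), Dusp28 and Rnf113a1 to Cyp3a59 (0.786 and 0.784), and Nr2f6 and Gpc1 to Cyp3a11 (0.679 and 0.667). Orm3 and Stim2 were closest to Cyp3a16 (both 0.73), and Glb1l and Orm3 to Cyp3a41a (0.74 and 0.739). Cyp3a16 was barely counted as expressed, at a mean log2 CPM of 0.0313 with 0 as the limit, and its LmnaADKO libraries again say little. Cyp3a41b and Cyp3a44, at -0.169 and -0.264, were below this limit and were not searched. These are descriptions across libraries that share a depth and a scaling.

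Nuclear receptors and other regulators of Cyp3a genes were set beside the family. With vehicle, 4 of 20 listed regulators fell and 0 rose in LmnaADKO liver by edgeR's quasi-likelihood test. Across all genes, 3.36% were called lower and 5.12% higher. The list's median log2 fold change was -0.20, beside 0 over all genes. Nr1i2, the receptor PXR, was at 82.4 ± 11.2 CPM in controls and 91.8 ± 11.6 in LmnaADKO liver (log2 fold change 0.16 ± 0.114, adjusted p = 0.415). Nr1i3, the constitutive androstane receptor (CAR), fell from 446 ± 140 to 222 ± 67.7 CPM (-1.0 ± 0.212, adjusted p = 0.00157), with an overlap of the groups between 258 and 343 CPM. Hnf4a, a master regulator of hepatocyte genes, was at 564 ± 89.5 and 468 ± 76.8 CPM (-0.27 ± 0.153, adjusted p = 0.264). Cux2 fell from 51.0 ± 18.9 to 2.14 ± 1.95 CPM (-4.58 ± 0.75, adjusted p = 0.000261), without overlap. Onecut1, a liver transcription factor, fell from 6.59 ± 3.53 to 2.81 ± 1.37 CPM (-1.23 ± 0.389, adjusted p = 0.0349). Foxa2 was the fourth that fell, by 0.80 on the log2 scale.

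Among 13 genes for electron transfer to P450 enzymes and for heme synthesis, 1 rose and 0 fell. It was Cyb5r3, cytochrome b5 reductase, at 319 ± 52.9 CPM in controls and 487 ± 49.6 in LmnaADKO liver (log2 fold change 0.61 ± 0.114, adjusted p = 0.000397 by edgeR). Por, the P450 oxidoreductase that all CYP3A enzymes need, was at 534 ± 141 and 380 ± 135 CPM (-0.49 ± 0.217, adjusted p = 0.14). The list's median was -0.12. Other targets of PXR and CAR moved both ways, since 7 of 20 rose and 6 fell, with a median of 0.14. Gsta1, a glutathione S-transferase, rose from 0.915 ± 0.901 to 15.3 ± 6.42 CPM (4.06 ± 0.701, adjusted p = 0.000422), and Gstm3 from 27.8 ± 13.1 to 132 ± 50.2 (2.25 ± 0.472, adjusted p = 0.00235). Cyp2c37, a P450 of fatty acid epoxidation and hydroxylation, fell from 851 ± 320 to 161 ± 112 CPM (-2.40 ± 0.435, adjusted p = 0.000619).

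Listed sex-biased genes of mouse liver were set beside the family, with the female-predominant Cyp3a genes left out of the list. In LmnaADKO liver with vehicle, 15 of 25 female-biased genes fell and 0 rose, with a median log2 fold change of -1.16. In the rising direction, 1 gene had an unadjusted p under 0.05, and 0 were called by DESeq2. Cyp2c69, a P450, fell from 229 ± 112 to 2.73 ± 2.31 CPM (-6.40 ± 0.845, adjusted p = 2.76e-05 by edgeR), and Sult2a1 from 241 ± 157 to 4.27 ± 9.08 (-5.84 ± 1.32, adjusted p = 0.00441). The list was not uniform, since 10 genes did not pass. Of 25 male-biased genes, 5 rose and 3 fell, with a median of 0.33. Several of the 25 were near 0 in both groups and could hardly pass. Among them were Mup1 (means of 0.0555 and 0.159 CPM), Mup7 (0.0405 and 0), and Hsd3b5 (0.0822 and 0.0696). Mup20, a major urinary protein, rose from a mean of 74.4 CPM (8.56 to 302) to 898 ± 314 (3.59 ± 0.904, adjusted p = 0.00922), Cyp2d9, a steroid 16-alpha-hydroxylase, from 41.2 ± 12.2 to 246 ± 67.4 (2.58 ± 0.28, adjusted p = 1.4e-06), and Cyp4a12a, a fatty acid hydroxylase, from 0.0614 ± 0.0781 to 1.44 ± 1.25 (4.40 ± 0.876, adjusted p = 0.00149). The male-biased genes that fell were Serpina1e, Igfals, and Egfr. In all, 40 listed genes were called in this comparison. Cux2 is on the regulator list and on the female-biased list, and this total does not count it again.

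**Figure D4:**
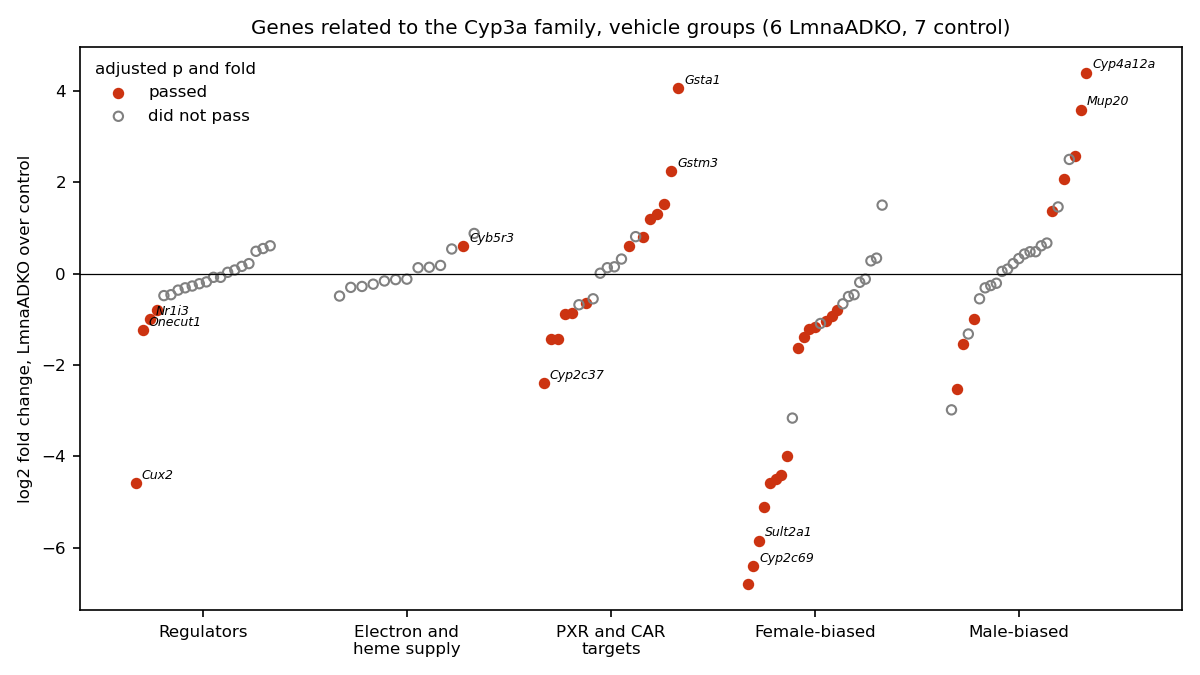
Log2 fold change of LmnaADKO (6 libraries) over control liver (7 libraries) with vehicle for the genes of 5 lists related to the Cyp3a family, in ascending order within each list, with filled points for genes that passed the test. Of 25 female-biased genes 15 fell and 0 rose, whereas PXR and CAR targets passed in both directions.

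Among FGF21-treated mice, 21 listed genes were called between genotypes by edgeR, and 1.61% of all genes were called higher and 1.26% lower. The female-biased list had 7 lower and 0 higher of 25 (median -1.0), and the male-biased list 3 higher and 1 lower of 25 (median 0.42). By DESeq2, 11 female-biased genes were lower and 0 higher, beside 16 and 0 with vehicle. For male-biased genes DESeq2 called 5 higher and 2 lower. By edgeR, the targets of PXR and CAR had 4 higher and 4 lower of 20, the regulators 1 lower of 20, and the genes of electron transfer and heme 1 higher of 13. Nr1i3 was the regulator that fell, from 667 ± 181 CPM in controls (n = 3) to 270 ± 60.2 (n = 8), a log2 fold change of -1.30 ± 0.239 (adjusted p = 0.00233 by edgeR). The other 3 that fell with vehicle did not pass here, with -2.19 ± 0.686 for Cux2 (adjusted p = 0.0812), 0.56 ± 0.497 for Onecut1 (0.599), and 0.18 ± 0.224 for Foxa2 (0.724). For Cux2 the groups did not overlap, at 49.2 to 86.4 CPM in controls (n = 3) and 0.373 to 23.3 in LmnaADKO liver (n = 8). Cyp2c69 was at 216 ± 81.6 and 12.8 ± 10.8 CPM (-4.08 ± 0.727, adjusted p = 0.00285). Sult2a1 was at 501 ± 323 and 32 ± 34.1 CPM and did not pass (-3.97 ± 1.17, adjusted p = 0.062). Its groups did not overlap either, at 246 to 864 CPM in controls and 0.373 to 106 in LmnaADKO liver.

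Genes around the cluster were compared in the same way. Of 32 other annotated genes within the cluster or 200 kb of it, 17 had counts, and 1 was called with vehicle, against 3.36% of all genes called lower and 5.12% higher. It was Cpsf4, a polyadenylation factor, at 15.9 and 10.2 CPM (log2 fold change -0.64 ± 0.111, adjusted p = 0.000164 by edgeR). On the same side, Ptcd1 (-0.44 ± 0.0947, adjusted p = 0.00155 by edgeR) and Zkscan5 (-0.39 ± 0.104, adjusted p = 0.00968) were under the 1.5-fold limit. With FGF21, 0 of the 17 genes were called, against 1.26% of all genes called lower and 1.61% higher. The adjusted p by edgeR was then 0.135 for Cpsf4, 0.0131 for Ptcd1, and 0.619 for Zkscan5. Zscan25 and Zfp655, on the side of Cyp3a16, had log2 fold changes of -0.15 ± 0.198 and 0.16 ± 0.111, and Rnf6 and Cdk8, beyond Cyp3a59, of -0.13 ± 0.141 and -0.19 ± 0.0923, and none of these passed. The pseudogene Cyp3a63-ps, which lies between Cyp3a41b and Cyp3a41a (chr5:145624092-145633993), had 0 to 65 counts in vehicle-treated controls and at most 3 in LmnaADKO liver, and its control mean of 0.893 CPM was at least 6.61-fold higher. Cyp3a57, the tenth gene of the family and 93.4% identical to Cyp3a59, had at most 15 counts in any library.

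Markers of other cells moved with the genotype in part. Across all genes, 5.12% were called higher and 3.36% lower with vehicle. Of 8 hepatocyte markers, 1 (Serpina1a) fell with vehicle, and their summed level ran from 79900 to 138000 CPM in controls and from 72300 to 108000 in LmnaADKO liver. Of 6 cholangiocyte markers 1 rose (Spp1), with sums of 27.5 to 51.8 and 86.5 to 197 CPM. These sums are mostly Spp1, at means of 32.7 and 116 CPM. The next highest marker, Sox9, was at 2.07 and 2.85. At an unadjusted p under 0.05, 4 of the 6 were higher and 0 lower. Of 7 stellate cell markers 3 rose, with sums of 184 to 279 and 265 to 409 CPM. Of 6 adipocyte markers 1 rose (Fabp4, also made by other cells), Lep had 0 counts in both groups, and Adipoq was at most 0.609 CPM in controls and 0.135 in LmnaADKO liver. Their sums ran from 5.81 to 11.2 CPM in controls and from 13.8 to 26.2 in LmnaADKO liver. These sums are mostly Fabp4, at means of 7.75 and 19.6 CPM. Of 5 endothelial markers 1 rose (Lyve1). Of 6 macrophage and 6 lymphocyte markers edgeR called 0, with 2 each at an unadjusted p under 0.05 and 1 each called by DESeq2. Median log2 fold changes were -0.11 for hepatocyte, 0.77 for cholangiocyte, 0.73 for stellate cell, and -0.47 for adipocyte markers. The adipocyte median gives no direction, since it lay between Lep and Retn, the latter at means of 0.0336 and 0.0152 CPM. For endothelial, macrophage, and lymphocyte markers, they were -0.27, -0.05, and -0.52. Of 12 pericentral genes 7 fell and 0 rose (median -0.77), and of 12 periportal genes 4 fell and 1 rose (median -0.32). The part of cell composition and zonation in the levels of the near-absent Cyp3a genes was not tested.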

How the data were processed

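Liver RNA of 24 mice was sequenced as polyA-selected, strand-specific libraries. The authors deposited raw counts of reads per gene for 23972 genes, after removing genes at 0 in every sample. The submitters' processing notes name GRCm38, cutadapt 4.8, FastQC 0.11.8, STAR 2.7.8a, and RSEM 1.3.3, without roles. If RSEM estimated the counts, reads shared by paralogs were divided by a model. GENCODE M21 located 23926 genes.

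Counts were scaled by TMM and tested over all genes in 1 fit of the 4 groups with edgeR 4.0.16 in R 4.3.3 (robust quasi-likelihood, Benjamini-Hochberg adjusted p under 0.05 and fold above 1.5). Standard errors were derived from the test, as the absolute log2 fold change over the square root of the quasi-likelihood F. The 95% intervals are normal intervals from them, and both are rough for members with few counts. Values of log2 CPM used a prior count of 2. p-values weigh a difference against the spread between these libraries, as estimated in that fit. Transcripts and promoters were aligned with Biopython 1.88. The fit was tested on simulated data. Alternatives were DESeq2 1.42.0, its size factors in edgeR, filterByExpr, adjusted p alone, a covariate for animal numbers of 3 or 4 digits, and libraries left out. The overlap without control vehicle 4 was added after the data were examined. Members and gene lists were chosen with earlier results of these data known. Named genes were the family, Nr1i2, Nr1i3, Hnf4a, Por, up to 3 called genes per list with the largest change, the 2 genes most like each expressed member, and neighbors within 200 kb. A gene that this rule names is not reported here. Other names, such as Foxa2, Igfals, single markers, and genes other than Sult2a1 in control vehicle 4, were added after their values were seen.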

Additional observations from a re-analysis of the deposited data

Results flagged for a closer look

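In 72 groups of 6 to 8 libraries (the 8 members and 16 named related genes in 3 groups each), the gap between the most extreme library and its neighbor, as a share of the group's range of log2 CPM, exceeded Dixon's limit in 5, and chance gives about 1 in 20. Among the members, Cyp3a16 in LmnaADKO vehicle 1 was the highest of its group (share 1, 0.139 CPM, which is 3 counts beside 5 libraries at 0), and Cyp3a41a in LmnaADKO vehicle 6 was the highest of its group (0.641, 4.14 CPM). In control vehicle 4, Sult2a1 was the lowest (0.821, 1.38 CPM) and Cyp4a12a the highest of the vehicle-treated controls (0.628, 0.23 CPM). Cyp2c37 was the lowest of its group in LmnaADKO FGF21 3 (0.547, 64.4 CPM).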

How the results depend on the processing

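The counts of members called with FGF21 in LmnaADKO mice, in controls, and in the interaction stayed at 0 under every alternative, and 4 members lay more than 2-fold lower in vehicle-treated LmnaADKO liver under every alternative run. Without control vehicle 3, control FGF21 3, and LmnaADKO FGF21 7, 13 listed genes were called between genotypes with FGF21, beside 21, and the log2 fold change of Cyp3a13 in that comparison turned from -0.15 to 0.02. This alternative holds fewer samples. With each library left out in turn, that count ran from 14 to 25 and the count with vehicle from 35 to 41, beside 40. With the number series as a covariate the counts were 31 with vehicle and 16 with FGF21, and with DESeq2 42 and 31. Numbers of 3 digits belonged to 6 of 7 control vehicle, 0 of 3 control FGF21, 1 of 6 LmnaADKO vehicle, and 4 of 8 LmnaADKO FGF21 mice, so the series can hardly be told apart from genotype with vehicle or from treatment in controls. No paired analysis was possible because each animal number occurs once. Within FGF21-treated LmnaADKO liver, Cyp3a41a ran from 0 to 385 counts between libraries, and with 3 FGF21-treated controls, 1 library can decide a group's mean.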
